A study of Mus musculus with 4 samples.

Results

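The NF-kappaB subunits, their inhibitor proteins and the kinase gene Ikbke were described in neutrophil-like suppressor cells of tumour-bearing mice (granulocytic myeloid-derived suppressor cells, or G-MDSC) and in neutrophils. The rule named 10 genes and took each probe set annotated with 1 of their symbols alone, which gave 18 of 45101 probe sets and 9 of 18193 genes. No probe set was assigned to Nfkb1, so it was not analysed here. G-MDSC, defined as CD11b+Ly6G+Ly6Clow, came from the spleens of female C57BL/6 mice 3.5 weeks after EL4 lymphoma cells were injected under the skin, and were isolated with Ly6G microbeads (2 arrays). Neutrophils came from the peritoneal cavity of female C57BL/6 mice given 2 injections of 1.5 ml of 12% casein, 16 h apart, and killed 3 h later, and were depleted of F4/80-positive cells before Ly6G selection (2 arrays). Casein is a milk protein used to draw neutrophils into the peritoneum. Cell kind went with tissue, tumour, casein and sorting in every array, so these cannot be told apart. The labels do not say whether replicates were taken from different animals, so p-values cover only the spread between these arrays, and that spread may be technical.

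NF-kappaB is a family of transcription factors that pair up as dimers and are held inactive in the cytoplasm by inhibitor (IkB) proteins. Signals from Toll-like receptors or cytokine receptors activate IkB kinases, the inhibitor is degraded, and the freed dimer switches on inflammatory genes. Several of its own inhibitors and subunits are among those genes, so the pathway feeds back on itself. In neutrophils it is known for driving cytokine production and prolonging survival.

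Promoter stretches are shown for the 4 members whose window held the 10-base kappaB consensus, the sequence that NF-kappaB dimers bind, since these genes can be targets of the factors they encode or restrain. Windows of 300 bases (250 before to 50 after a gene start) were taken from RefSeq on GRCm38.p6 for 7 of the 10 members. Both strands were searched, and 8.46% of all 32851 windows of this length held a match. Windows of Rel, Nfkbia, Nfkbie and Nfkb2 held one, and those of Rela, Nfkbib and Ikbke held none, which says only that these letters are not in those windows. Capitals mark the matched bases, each stretch is read 5′ to 3′ on its gene's strand, and longer capital runs are overlapping matches.
Rel, chr11:23771042-23771070, minus strand: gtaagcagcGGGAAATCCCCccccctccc
Nfkbia, chr12:55492658-55492685, minus strand: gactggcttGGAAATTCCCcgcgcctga
Nfkbie, chr17:45555585-45555612, plus strand: cagcaaacaGGGGGATTCCggaggggcg
Nfkb2 first start, chr19:46304689-46304717, plus strand: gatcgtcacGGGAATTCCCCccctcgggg
Nfkb2 first start, chr19:46304717-46304744, plus strand: gggccgaaaGGGGCTTTCCcggctggag
Nfkb2 later start, chr19:46305696-46305723, plus strand: ggtattttcGGGACTTTCCtaagcagca
The Rel match began 92 bases, the Nfkbia match 29 bases and the Nfkbie match 106 bases upstream of the gene start. For Nfkb2, first and later refer only to the order of the windows at hand. The RefSeq gene itself begins further upstream, at chr19:46300994, where no window was at hand. The matches at the first of these Nfkb2 starts began 39 and 11 bases upstream of it. The last match shown lay 11 bases downstream of 1 later Nfkb2 start and 225 bases upstream of another, and a further Nfkb2 match 236 bases upstream is not shown.

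Most members were lower in G-MDSC than in neutrophils. By limma, 6 of 9 measured members were lower and 0 higher at an adjusted p under 0.05, where 8.05% of all 13139 genes tested were lower and 8.3% higher. These were Ikbke, Nfkbie, Relb, Nfkb2, Nfkbib and Rel, while Nfkbiz, Nfkbia and Rela did not pass the threshold. At an unadjusted p under 0.05, in either direction, the number of members was the same, 6, beside 3890 of all 13139 genes. The median log2 difference (G-MDSC minus neutrophils) over the 9 members was -1.97, and that over all genes was -0.18. The arrays of the groups did not overlap for 7 of the 9 members, all lower in G-MDSC, where 32.2% of all genes were apart in that direction and 27.3% in the other. Fewer cells of a type and less RNA per cell cannot be told apart in such bulk samples.

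The arrays differed at the low end of their signals, which touches how they are scaled. The 40th percentile of signal was 45.7 and 52.6 in the G-MDSC arrays and 51.4 and 132.7 in the neutrophil arrays, where replicate 2 stood apart. All 18 member probe sets were above the 40th percentile of every array. When each array was scaled to a common median instead, the median gene moved to 0.42 and 3 members stayed past the threshold, Ikbke (-3.57), Nfkbie (-2.77) and Relb (-2.55). Median scaling multiplies each array by 1 factor, so a member's distance from the median gene could hardly change, whatever the data. The next values therefore say nothing on how firm the differences are. Ikbke was at -4.01 relative to that median as deposited and at -3.98 with median scaling, and Rel at -1.35 and -1.32. The calls also rest on sharing the spread across genes. Without that moderation, or with low signals raised to a common floor, limma called 0 members, though 6 had an unadjusted p under 0.05 each time. Of all 13139 genes, 2379 had such a p without moderation and 3224 with the floor.

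**Figure D1:**
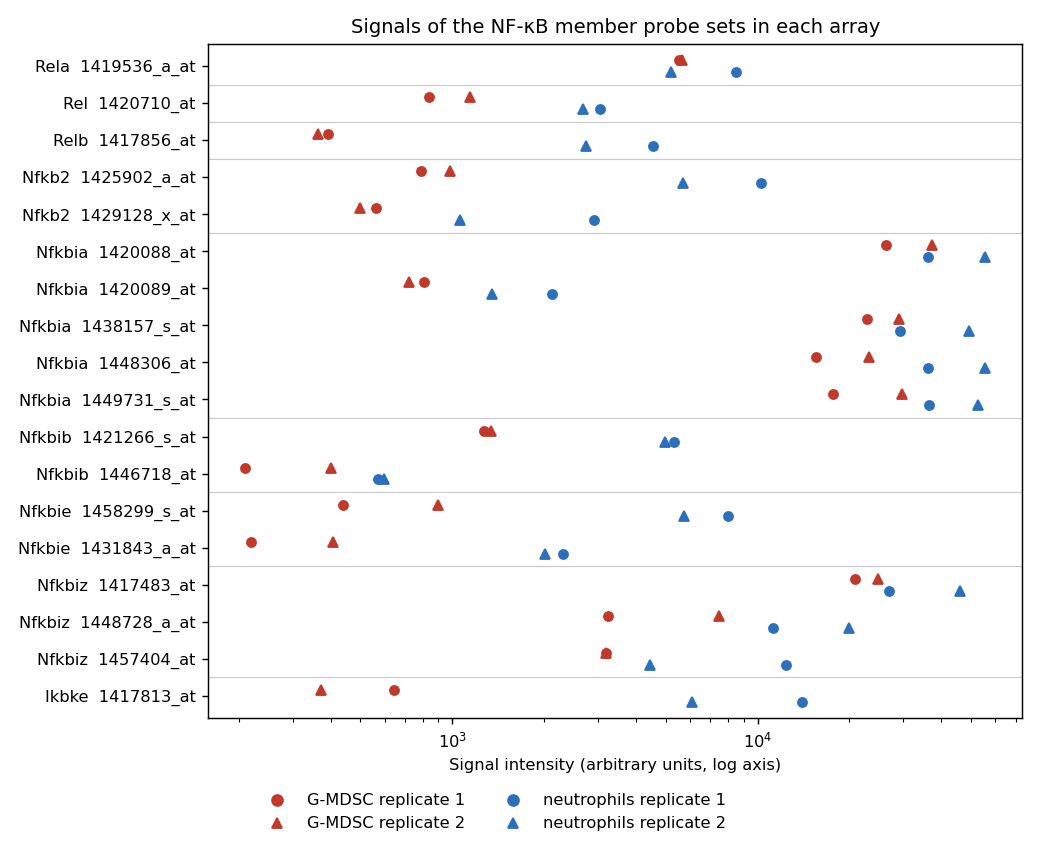
Signal intensity (log axis) of each of the 18 member probe sets in G-MDSC (red, upper points of each row) and neutrophils (blue, lower points), with circles for replicate 1 and triangles for replicate 2. The red and blue points overlap in 2 rows, those of Rela and of 1 of the 5 Nfkbia probe sets.

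Among the subunits, Relb, Nfkb2 and Rel were lower in G-MDSC and Rela did not pass the threshold. Rela encodes the main activating subunit of the canonical dimers. Its signal was 5514 and 5642 in G-MDSC, against 8508 and 5219 in the neutrophils. The G-MDSC values lay between those of the neutrophils, so the groups overlapped. On the log2 scale the groups differed by -0.26 ± 0.33 (SE, n = 2 per group; limma adjusted p = 0.633), and the difference turned to 0.38 with median scaling and to 0.10 without neutrophils replicate 1.

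Relb encodes a subunit that acts mainly in the non-canonical branch of the pathway. Its signal was 391.6 and 363.5 in G-MDSC, against 4552 and 2736 in the neutrophils. Both G-MDSC arrays were far below both neutrophil arrays, with a narrow spread between them. Relb was 9.02-fold lower in G-MDSC, a log2 difference of -3.17 ± 0.34 (SE, n = 2 per group; limma adjusted p = 0.000165).

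Nfkb2 encodes the precursor that keeps RelB inactive until it is cut to its mature form. Its brighter probe set (1425902_a_at) gave 791.6 and 985.2 in G-MDSC, against 10281 and 5684 in the neutrophils. The second probe set (1429128_x_at, a class that can also bind other transcripts) gave 561.6 and 499.1 in G-MDSC, against 2912 and 1061 in the neutrophils. The groups were apart in both probe sets, by less in the second, where neutrophils replicate 2 was the nearer. The gene value was 8.52-fold lower, at -3.09 ± 0.35 (SE, n = 2 per group; limma adjusted p = 0.000227). It was -2.40 with the median of the probe sets, and the call was lost with median scaling (-2.46, adjusted p = 0.0647). The second probe set differed by -1.70 ± 0.47 and missed the threshold in the fit over 28754 probe sets (adjusted p = 0.0603).

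Rel encodes c-Rel, a subunit known for its part in lymphocytes and in the induction of cytokines such as IL-12. Its signal was 837.8 and 1140 in G-MDSC, against 3048 and 2672 in the neutrophils. The groups did not overlap. Rel was 2.89-fold lower, at -1.53 ± 0.31 (SE, n = 2 per group; limma adjusted p = 0.00739). The call was lost without G-MDSC replicate 1 (-1.31, adjusted p = 0.106), with no intensity trend in the variance (adjusted p = 0.0767) and with median scaling (-0.90, adjusted p = 0.589).

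Of the 4 inhibitors, Nfkbie and Nfkbib were lower in G-MDSC, and Nfkbia and Nfkbiz did not pass the threshold in their brightest probe sets. Nfkbie encodes IkB-epsilon, an inhibitor that is itself induced by NF-kappaB. Its brighter probe set gave 436.9 and 900.1 in G-MDSC, against 8017 and 5753 in the neutrophils. The other gave 218.5 and 405.8 in G-MDSC, against 2311 and 2010 in the neutrophils. In both probe sets G-MDSC replicate 2 was the higher of its group and still far below the neutrophils. The gene value was 10.6-fold lower, at -3.40 ± 0.38 (SE, n = 2 per group; limma adjusted p = 0.000202). The other probe set differed by -2.79 ± 0.38 and also passed in the fit over probe sets (adjusted p = 0.00434).

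Nfkbib encodes IkB-beta, an inhibitor that is degraded and replaced more slowly than IkB-alpha. Its probe set 1421266_s_at gave 1275 and 1335 in G-MDSC, against 5304 and 4988 in the neutrophils. The arrays of each group lay close together. Nfkbib was 3.91-fold lower, at -1.97 ± 0.29 (SE, n = 2 per group; limma adjusted p = 0.0013), a call lost with median scaling (-1.33, adjusted p = 0.397). Its dimmer probe set, 1446718_at, gave 210.1 and 399.4 in G-MDSC, against 570.9 and 597.3 in the neutrophils. The groups were again apart, but the difference of -0.97 ± 0.41 missed the threshold in the fit over probe sets (adjusted p = 0.206). A name ending in _s_at marks a probe set that can be shared by several transcripts, so the 2 Nfkbib readings need not measure the same molecules. The brighter Nfkbie probe set and 2 of the Nfkbia probe sets are of this class too.

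Nfkbia encodes IkB-alpha, the inhibitor that NF-kappaB rapidly resynthesises to end its own activity. Its brightest probe set (1420088_at) gave 26397 and 37168 in G-MDSC, against 36082 and 55549 in the neutrophils. G-MDSC replicate 2 exceeded neutrophils replicate 1, so the groups overlapped. On the log2 scale the groups differed by -0.52 ± 0.35 (SE, n = 2 per group; limma adjusted p = 0.355). The size depended on single arrays: leaving out G-MDSC replicate 1 gave -0.27 and G-MDSC replicate 2 gave -0.76, while leaving out neutrophils replicate 2 gave -0.20 and neutrophils replicate 1 gave -0.83. The difference turned to 0.12 with median scaling. The groups did not overlap in the other 4 Nfkbia probe sets, whose log2 differences were -0.56, -0.94, -1.13 and -1.25. None of these passed the threshold in the fit over probe sets, where the adjusted p ran from 0.0723 to 0.393, and 3 of them had an unadjusted p under 0.05. The probe set with the largest of these differences, 1448306_at, gave 15484 and 23130 in G-MDSC, against 36178 and 55779 in the neutrophils. In 4 of the 5 Nfkbia probe sets all 4 arrays were above the 99th percentile of their array.

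Nfkbiz encodes IkB-zeta, a nuclear member of the inhibitor family that acts as a co-activator for a set of secondary response genes. Its brightest probe set (1417483_at) gave 20891 and 24828 in G-MDSC, against 26888 and 46031 in the neutrophils. Both G-MDSC arrays were below both neutrophil arrays, by a small margin from neutrophils replicate 1, and all 4 arrays were above the 99th percentile of their array, as for the bright Nfkbia probe sets. On the log2 scale the groups differed by -0.63 ± 0.35 (SE, n = 2 per group; limma adjusted p = 0.257) and by 0.01 with median scaling. A second probe set, 1448728_a_at, gave 3237 and 7477 in G-MDSC, against 11210 and 20000 in the neutrophils, a difference of -1.60 ± 0.45. The third, 1457404_at, gave 3196 and 3178 in G-MDSC, against 12393 and 4432 in the neutrophils, a difference of -1.21 ± 0.45. Neither of these differences passed in the fit over probe sets (adjusted p = 0.0652 and 0.149), and that of the third was -0.47 without neutrophils replicate 1. The groups were apart in all 3 probe sets. The call therefore depended on how the probe sets were combined: with their median in place of the brightest, Nfkbiz was lower by limma (-1.67, adjusted p = 0.0196). That median was taken array by array. It came from 1457404_at in neutrophils replicate 1 and from 1448728_a_at in the other arrays. The -1.67 was thus more negative than the difference of any of the 3 probe sets, and no single probe set bears it out. The size also depended on the neutrophil arrays. The brightest probe set was at -1.01 without neutrophils replicate 1 and at -0.24 without neutrophils replicate 2.

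Ikbke encodes IKK-epsilon, a relative of the kinase TBK1 that acts in the interferon response and is induced by inflammatory stimuli in macrophages. Its signal was 642.8 and 372.2 in G-MDSC, against 13988 and 6095 in the neutrophils. The lower neutrophil array was still far above both G-MDSC arrays. Ikbke was 18.3-fold lower, at -4.19 ± 0.42 (SE, n = 2 per group; limma adjusted p = 0.000103), and stood 60th of 13139 genes when ordered from the most negative difference. With 1 array left out it ran from -4.79 without neutrophils replicate 2 to -3.60 without neutrophils replicate 1, and passed the threshold each time. Over all 4 arrays its difference was the most negative of the 9 members, but its interval of 1 SE met that of Nfkbie, and without G-MDSC replicate 2 the order turned, with Ikbke at -3.81 and Nfkbie at -3.91. The values of Nfkbie, Relb and Nfkb2 lay within 1 SE of one another, and whether members differed from each other in size was not tested.

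**Figure D2:**
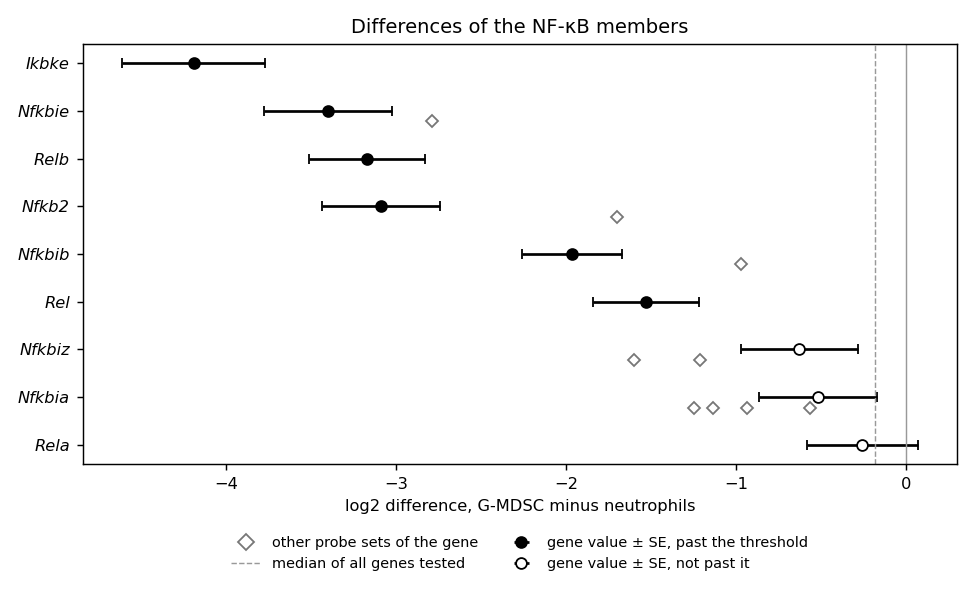
The log2 difference (G-MDSC minus neutrophils) of each member, with circles for the gene value ± SE (2 arrays per group), filled where limma's adjusted p was under 0.05, and diamonds for the gene's other probe sets. Differences run from -4.19 for Ikbke to -0.26 for Rela, and the dashed line marks the median of all genes at -0.18.

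All 18 member probe sets had a negative log2 difference on the deposited scale, and 14 did with median scaling, the exceptions being 2 of Nfkbia, the brightest of Nfkbiz and that of Rela. The arrays of the groups were apart in 16 of the 18, with G-MDSC the lower, a pattern shown by 30.8% of all 28754 probe sets tested. In that fit 7 of the 18 were lower at an adjusted p under 0.05 and 0 higher, where 4.31% of all probe sets were lower and 3.72% higher. Probe sets of 1 gene share their RNA and are not replicates. The number lower was 1 with median scaling and 0 with no intensity trend.

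The genes with the most similar pattern were sought for the members with the largest and the smallest difference. Likeness was the root mean square distance of log2 values centred per gene, over 4 arrays. Nearest to Ikbke were Mllt6 (distance 0.21), Abcc1 (0.22) and Cish (0.23). Nearest to Rela were Ppme1 (0.01), Prkcd (0.05) and Trim14 (0.05). Only 4 arrays were compared over 13139 genes, so small distances can arise without any link between the genes, and none was tested.

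Other genes of the pathway were counted in 3 lists, beside the 8.05% of all genes lower and 8.3% higher. Of 35 kinases and adaptors listed, 29 were tested, 5 (17.2%) were lower and 1 (3.45%) higher in G-MDSC, with a median log2 difference of -0.06. Traf1, a signalling adaptor and a known NF-kappaB target, was lower by the most, at -4.09 ± 0.43. Traf1 signals were 259.4 and 458.6 in the G-MDSC arrays, against 9343 and 4041 in neutrophils. Irak2, a kinase below the Toll-like receptors, was at -2.44 ± 0.37. Malt1, a protease of the CARD-BCL10-MALT1 complex, was at -1.66 ± 0.30 and Map3k8, the kinase TPL2, at -1.26 ± 0.35. The other gene called lower was Traf6, an adaptor and ubiquitin ligase of these receptors. Sharpin, a subunit of the linear ubiquitin ligase, was higher by 1.12 ± 0.30. That call was lost without G-MDSC replicate 1 (adjusted p = 0.224), without G-MDSC replicate 2 (adjusted p = 0.266), with no intensity trend, with quantile normalization and with median scaling. Map3k8 was at -0.79 without G-MDSC replicate 1 and no longer passed (adjusted p = 0.479). The number of these genes lower was 1 with median scaling and 1 with no intensity trend, where 396 and 331 of all genes were lower.

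Of 21 brakes and other IkB proteins listed, 20 were tested, 5 (25%) were lower and 2 (10%) higher, with a median of -0.16 beside the -0.18 of all genes. Tnfaip3, which encodes the ubiquitin-editing brake A20, gave 3541 and 8050 in G-MDSC, against 27565 and 37445 in the neutrophils, a difference of -2.59 ± 0.40 (SE, n = 2 per group). Zc3h12a, an RNase that degrades cytokine mRNAs, was at -2.27 ± 0.30. Irak3, an inhibitory relative of Irak2, was at -2.02 ± 0.31 and Tnip1, a partner of A20, at -2.01 ± 0.30. Bcl3, a nuclear IkB protein, was also called lower. Nlrx1, an NLR protein of mitochondria, was higher by 2.01 ± 0.41, and Pdlim2, which promotes the breakdown of nuclear RelA, was higher by 1.44 ± 0.32, or by 1.21 with G-MDSC replicate 2 left out, which ended its call (adjusted p = 0.151). In this list median scaling left 0 lower and 1 higher, where 396 of all genes were lower and 913 higher. With that scaling 3 of its genes had an unadjusted p under 0.05, beside 2994 of all genes.

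Of 25 textbook target genes listed, 24 were tested, 15 (62.5%) were lower and 1 (4.17%) higher, with a median of -1.98 beside the -0.18 of all genes. The chemokine gene Cxcl1 was at -6.40 ± 0.43 (SE, n = 2 per group), the cytokine genes Il6 and Tnf at -5.38 ± 0.40 and -4.77 ± 0.44, and the adhesion gene Icam1 at -4.59 ± 0.37. Vcam1, another adhesion gene, was higher by 3.58 ± 0.67. Its signal was 1603 and 780.5 in the G-MDSC arrays, against 24.7 and 206.1 in neutrophils. This call did not hold when the probe sets were combined by their median or with no intensity trend. The 8 targets not called were Cd83 (-1.04), Cxcl2, Saa3, Bcl2l1, Il1b (-0.52), Tnfaip2, Plau and Lcn2 (-0.12). The number of targets lower was 11 with median scaling and 10 with no intensity trend, where 396 and 331 of all genes were lower. Earlier results of these data were known when the 3 lists were drawn up, so their counts are descriptions.

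**Figure D3:**
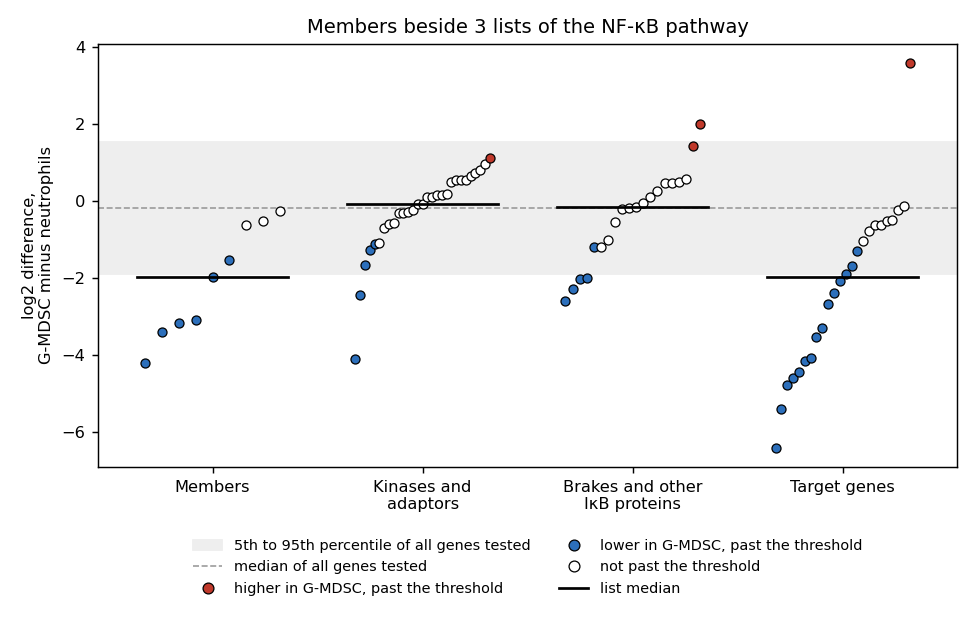
The log2 difference (G-MDSC minus neutrophils) of each tested gene among the members and the 3 pathway lists, 1 circle a gene, red where higher in G-MDSC past limma's threshold, blue where lower and open otherwise, with black bars for list medians. The medians are -1.97 for members, -0.06 for kinases and adaptors, -0.16 for brakes and -1.98 for targets, and the grey band holds the 5th to 95th percentile of all genes.

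Most macrophage markers were lower in G-MDSC, as most members were, and so were some markers of mast cells and dendritic cells. Values are given for the 2 markers of each list with the highest mean signal and for some called markers. Other markers are named because they were called or dim, after their values were seen. Counts stand beside the 8.05% of all genes lower and 8.3% higher. Of 13 macrophage markers tested, 10 were lower in G-MDSC and 0 higher. From the most negative, these were Msr1 (-5.89 ± 0.33), Marco, Maf, C1qb, Adgre1 (-2.99 ± 0.32), Timd4, C1qa, C1qc, Mrc1 and Cd68. The summed signal of the 13 was 17130 and 17099 in G-MDSC, against 44632 and 65368 in the neutrophils. Of the 13, 0 were at or below the 40th percentile in both arrays of a group. Csf1r, a macrophage growth factor receptor, gave 11012 and 11272 in G-MDSC, against 16081 and 17388 in the neutrophils, and the lysosomal marker Cd68 gave 2438 and 2717 in G-MDSC, against 5254 and 7900 in the neutrophils. Csf1r did not pass the threshold, and the Cd68 call (-1.32 ± 0.32) was lost with either G-MDSC array left out. Among 10 markers of mast cells and basophils, limma called 5 lower (Cma1, Mcpt4, Tpsb2, Cpa3 and Fcer1a) and 1 higher (Mcpt8). Their sum was 20035 and 22583 in G-MDSC, against 41147 and 30863 in the neutrophils. Most of that sum was Hdc, the histamine-forming enzyme, at 15256 and 18052 in G-MDSC, against 24350 and 24016 in the neutrophils, which did not pass the threshold (-0.54 ± 0.30, adjusted p = 0.258). Kit, the stem cell factor receptor, ran the other way without passing, at 2003 and 3146 in G-MDSC, against 1551 and 417.0 in the neutrophils (1.62 ± 0.51, adjusted p = 0.0531). It passed when replicate 1 of G-MDSC (1.94) or of the neutrophils (2.54) was left out, and in the fit with the replicate block. Cma1, Mcpt4 and Tpsb2 were at or below the 40th percentile in both G-MDSC arrays and Mcpt8 in both neutrophil arrays. Of 7 dendritic cell markers, 2 (Cd209a and Ccr7) were lower and 0 higher, and Xcr1 was at or below that percentile in both G-MDSC arrays, the sum being 2811 and 2563 in G-MDSC, against 6528 and 4423 in the neutrophils. Itgax overlapped between the groups, at 1736 and 1317 in G-MDSC, against 2118 and 1592 in the neutrophils. Ccr7 was at -1.52 ± 0.41, and missed the threshold once G-MDSC replicate 1 was left out (adjusted p = 0.0649). The part that macrophages, mast cells or dendritic cells had in the members' differences was not tested.

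No lymphoid or erythroid marker was called lower by limma. Of 9 B and plasma cell markers 0 were lower and 1 higher, Jchain (4.49 ± 0.39), the sum being 19284 and 14670 in G-MDSC, against 10178 and 12012 in the neutrophils. Ms4a1 and Cd22 overlapped between the groups, with differences of 0.10 each. Of 7 T and NK cell markers 0 were lower and 1 higher, Nkg7 (1.83 ± 0.56), which missed the threshold once G-MDSC replicate 1 was left out (1.38). The Nkg7 call was also lost with no filter, with the filter at the 60th percentile, with quantile normalization and with no intensity trend. Gzma overlapped between the groups. Cd4 was at or below the 40th percentile in both arrays of each group, and the sum over 8 probe sets was 1507 and 713 in G-MDSC, against 1019 and 867 in the neutrophils. Of 6 erythroid markers 0 were lower and 0 higher, Alas2 and Klf1 were at or below that percentile in both neutrophil arrays, and the sum was 2210 and 2147 in G-MDSC, against 2037 and 2748 in the neutrophils. Tfrc and Epor overlapped between the groups, at -0.18 and -0.61. Neutrophil markers themselves were present in both groups. Of 9 tested, 0 were at or below the 40th percentile in both arrays of a group, 4 were higher (Camp, Ltf, Ngp and Cxcr2) and 0 lower, and their sum was 272141 and 323513 in G-MDSC, against 183586 and 218527 in the neutrophils. S100a8 overlapped between the groups, at 53178 and 61944 in G-MDSC, against 58668 and 85891 in the neutrophils. S100a9 gave 44932 and 54090 in G-MDSC, against 55662 and 81106 in the neutrophils, and did not pass the threshold.

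**Figure D4:**
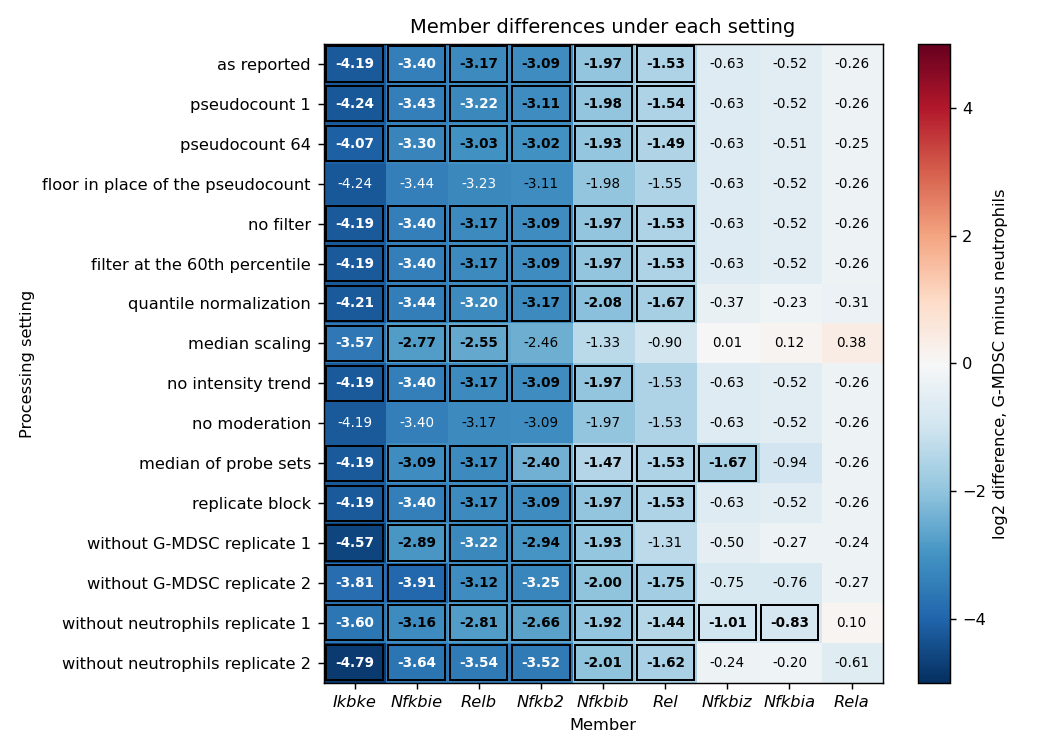
The log2 difference (G-MDSC minus neutrophils) of each member (columns) under each processing setting (rows), with colour for the size and boxed bold figures where limma's adjusted p was under 0.05. The boxes reach from Ikbke to Rel in the first row, from Ikbke to Relb with median scaling, and none appear with the floor or with no moderation.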

How the data were processed

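Total RNA (100 ng per sample) was measured on 4 Affymetrix expression arrays, 1 per sample and 2 per group. Per the submitters' processing notes, the authors used GCOS 1.4 and MAS5, and the deposited numbers are linear intensities, 1 per probe set. The trimmed mean of each array's deposited intensities (2% off each end) is 500.0, so arrays had been scaled to one another. The table holds no detection calls. Precision is limited by the number of arrays. Symbols came from the platform annotation, checked by gene ID against RefSeq of GRCm38.p6, where 0 changed. Of 45101 probe sets, 34945 had 1 symbol, 932 several and 9160 none, beside 64 controls.

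Signals were analysed as log2(signal + 16), which understates changes of dim genes. Probe sets had to exceed the 40th percentile of at least 2 arrays, and the one with the highest mean stood for its gene. Differences were fitted with limma 3.58.1 in R 4.3.3 (lmFit, eBayes with an intensity trend, two-sided), adjusted by Benjamini-Hochberg over all 13139 genes, or over 28754 probe sets in a second fit, at a threshold of 0.05. The fit was run on simulated data with the same spread for every gene and array, as a check of its working. Replicates of the real arrays correlated at 0.953 in G-MDSC and 0.875 in neutrophils, a less even spread. The check therefore says nothing on how firm the calls are. An exact permutation test of 2 arrays against 2 cannot reach that threshold and was not used. Tables and figures were made with Python 3.11.15, pandas 2.3.3, numpy 2.4.6 and matplotlib 3.10.9.

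The members and lists were chosen with earlier results of these data known. Named were all members, the 4 largest called differences per direction of each pathway list, the 3 genes nearest in pattern to 2 members, and the 2 markers of each cell type with the highest mean signal. Other pathway genes and markers were named where a count was small, and all called macrophage markers were named, after their values were seen. Alternatives were other pseudocounts, a floor, other filters, normalizations and variance models, the median of probe sets, a replicate block and leaving out each array.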

Additional observations from a re-analysis of the deposited data

How the results depend on the processing

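The 9 member differences were recomputed under 15 alternatives. Of these 135 values, 111 kept direction and side of the threshold, 17 lost the call, 3 gained it and 4 changed sign: with median scaling Nfkbia was at 0.12, Nfkbiz at 0.011 and Rela at 0.38, and without neutrophils replicate 1 Rela was at 0.10 (range over left-out arrays -0.61 to 0.10). The causes were not tested. The number of members lower, 6 as reported, was 3 with median scaling and 5 to 8 with 1 array left out.

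With the floor, and with no moderation, limma called 0 members, 0 member probe sets and 0 genes of every list or of the whole table, in either direction. At an unadjusted p under 0.05 there were 6 members, 8 member probe sets, 6 kinases and adaptors, 8 brakes, 14 targets and 3224 genes with the floor, and 6, 7, 5, 5, 11 and 2379 with no moderation. With no intensity trend the number lower was 331 genes (1058 as reported), 1 kinase or adaptor, 3 brakes and 0 member probe sets, and the number higher 148 genes (1091 as reported) and 0 of each list; 11 member probe sets, 6 kinases and adaptors, 9 brakes and 16 targets had an unadjusted p under 0.05. With median scaling it was 396 genes, 1 kinase or adaptor, 0 brakes and 1 member probe set lower, with 0 kinases or adaptors and 1 brake higher. Quantile normalization left 0 kinases or adaptors higher, and the median of probe sets left 0 targets higher.

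With 1 array left out, 561 to 3472 genes were lower and 429 to 2419 higher. Over the same fits 3 to 7 kinases and adaptors were lower and 0 to 7 higher, 4 to 6 brakes lower and 1 to 4 higher, 13 to 19 targets lower, and 7 to 12 member probe sets lower. These fits assume that a lone array varies like the other group. Replicate numbers are shared between the groups, but with 2 pairs they show no pairing by design. Deviations of same-numbered arrays correlated at 0.24 across genes, which are not replicates. With the replicate block 6 members, 13 member probe sets, 1607 genes and 5 brakes were lower, and 1699 genes and 2 kinases or adaptors higher.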
